A study of Mus musculus with 6 samples.

Results

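The genes that copy DNA were examined in ischemic muscle of mice with and without GPR174, a G protein-coupled receptor for lysophosphatidylserine encoded on the X chromosome. The group held 43 genes of S phase and DNA replication, taken by name from the 18089 genes to which the deposited transcript values could be summed, and every one of the 43 had enough counts to be tested among 14395 genes. Bulk RNA sequencing was done on hindlimb muscle 7 days after hindlimb ischemia (HLI), in which the left femoral artery was ligated at both ends and the segment between was excised. The wild-type (WT) group was 3 male C57BL/6 mice, littermates of the knockouts, and the Gpr174-/Y group was 3 male C57BL/6 mice that lacked the receptor, all 8 to 10 weeks old at surgery by the study's methods. All 6 mice had undergone HLI, and no library from a non-ischemic limb was analysed here, so the comparison is between genotypes within injured muscle. The study describes the deficiency as global, that is not restricted to a cell type. Whole muscle was sequenced, so a lower value can reflect fewer cells of a type or less RNA per cell, and these cannot be told apart.

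Replication starts at origins, where the origin recognition complex with CDC6 and CDT1 loads the MCM helicase onto duplex DNA in G1. In S phase CDC45 and the GINS complex join MCM to form the active helicase, polymerase alpha with primase lays down primers, and polymerases delta and epsilon extend them while held to DNA by the sliding clamp PCNA. Most of these genes are low in resting cells and are transcribed at the G1 to S transition under E2F factors, and in injured muscle they are known to be expressed by dividing satellite cells, infiltrating leukocytes, fibroblasts and vessel cells, whereas mature fibre nuclei do not divide.

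The promoters of several members carry sequence motifs known from cell cycle genes. In the RefSeq table (build GRCm38.p6), a window from 250 bases before to 50 bases after a transcription start was given for 35 of the 43 members, in 40 windows; Mcm4, Gins1, Gins2, Gins4, Prim2, Pole, Rfc2 and Ccne2 had none. The E2F motif was searched as TTTCCCGC, TTTCGCGC, TTTGCCGC or TTTGGCGC on both strands, and the CCAAT box, bound by NF-Y, as CCAAT on both strands. Below are the 160 bases just before the start of 4 members that were higher in Gpr174-/Y muscle and of Rpa1, the member with the lowest log2 fold change, 5′ to 3′ on the strand of the gene. Capitals mark every match of either motif on either strand.
Mcm6, chr1:128359706-128359865, minus strand: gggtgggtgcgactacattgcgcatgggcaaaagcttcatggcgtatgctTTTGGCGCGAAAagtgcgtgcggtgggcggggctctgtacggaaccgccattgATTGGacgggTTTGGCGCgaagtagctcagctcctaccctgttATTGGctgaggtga
Mcm5, chr8:75109349-75109508, plus strand: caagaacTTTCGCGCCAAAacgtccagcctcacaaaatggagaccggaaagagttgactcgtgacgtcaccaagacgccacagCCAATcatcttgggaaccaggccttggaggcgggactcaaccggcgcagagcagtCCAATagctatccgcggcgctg
Cdc6, chr11:98907991-98908150, plus strand: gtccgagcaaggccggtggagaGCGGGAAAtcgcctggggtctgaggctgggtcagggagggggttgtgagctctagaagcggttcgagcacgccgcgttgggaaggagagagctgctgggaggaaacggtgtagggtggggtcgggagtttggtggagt
Pola1, chrX:93632156-93632315, minus strand: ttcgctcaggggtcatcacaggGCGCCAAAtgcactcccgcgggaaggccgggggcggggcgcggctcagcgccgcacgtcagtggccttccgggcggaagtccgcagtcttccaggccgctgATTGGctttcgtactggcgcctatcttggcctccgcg
Rpa1, chr11:75348384-75348543, minus strand: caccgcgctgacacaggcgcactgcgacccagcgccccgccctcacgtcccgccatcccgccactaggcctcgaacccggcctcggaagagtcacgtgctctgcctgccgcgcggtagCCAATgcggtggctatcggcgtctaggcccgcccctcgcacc
In Mcm6 and Mcm5 the run of 12 capitals is a pair of E2F matches on opposite strands that overlap by 4 bases. Mcm6 has a further E2F match nearer its start, and Cdc6 and Pola1 have their match at the same distance, 138 bases before the start. No E2F match lies in the Rpa1 window, which says only that these letters are not in it.

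The 43 replication genes were higher in Gpr174-/Y muscle as a rule, by moderate amounts. At an adjusted p under 0.05 by edgeR's quasi-likelihood test with Benjamini-Hochberg adjustment, 35 of 43 (81.4%) were higher, where 27.0% of all tested genes were. The subunit genes Rpa1, Rpa2 and Pola2 were lower (3 of 43, 6.98%), where 27.6% of all tested genes were, and 54.6% of all tested genes were called in either direction. Gins4, Pole2, Rfc3, Rfc4 and Ccne2 did not pass. The median log2 fold change of the members was 0.57, beside 0.00 over all tested genes, and the range ran from -0.55 for Rpa1 to 1.00 for Ccne1. None of the 43 met the stricter rule that also asks for more than 1 log2 unit of change in either direction, which 3.45% of all tested genes passed upwards and 4.84% downwards. Every Gpr174-/Y library stood above every WT library for 35 members, where this held for 33.1% of all tested genes, and below for 4 members (32.4% of all tested genes).

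The summed level of the 43 genes, in CPM (counts divided by the TMM-scaled library size), was 622, 633 and 641 in WT replicates 1 to 3 and 863, 834 and 792 in Gpr174-/Y replicates 1 to 3. All Gpr174-/Y libraries lay above all WT libraries, and the groups were further apart than the libraries within either. As a median over members, the log2 deviation from the WT mean was 0.66, 0.56 and 0.50 in Gpr174-/Y replicates 1 to 3. Gpr174-/Y replicate 1 held the highest value of its group for 29 members and replicate 3 the lowest for 31, and WT replicate 3 the highest WT value for 22. The coefficient of variation over the 3 libraries had a median of 9.28% in WT and 5.87% in Gpr174-/Y muscle, and was larger in WT for 31 members. It was highest at 32.7% in WT for Ccne1 and at 29.2% in Gpr174-/Y for Pole2.

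**Figure D1:**
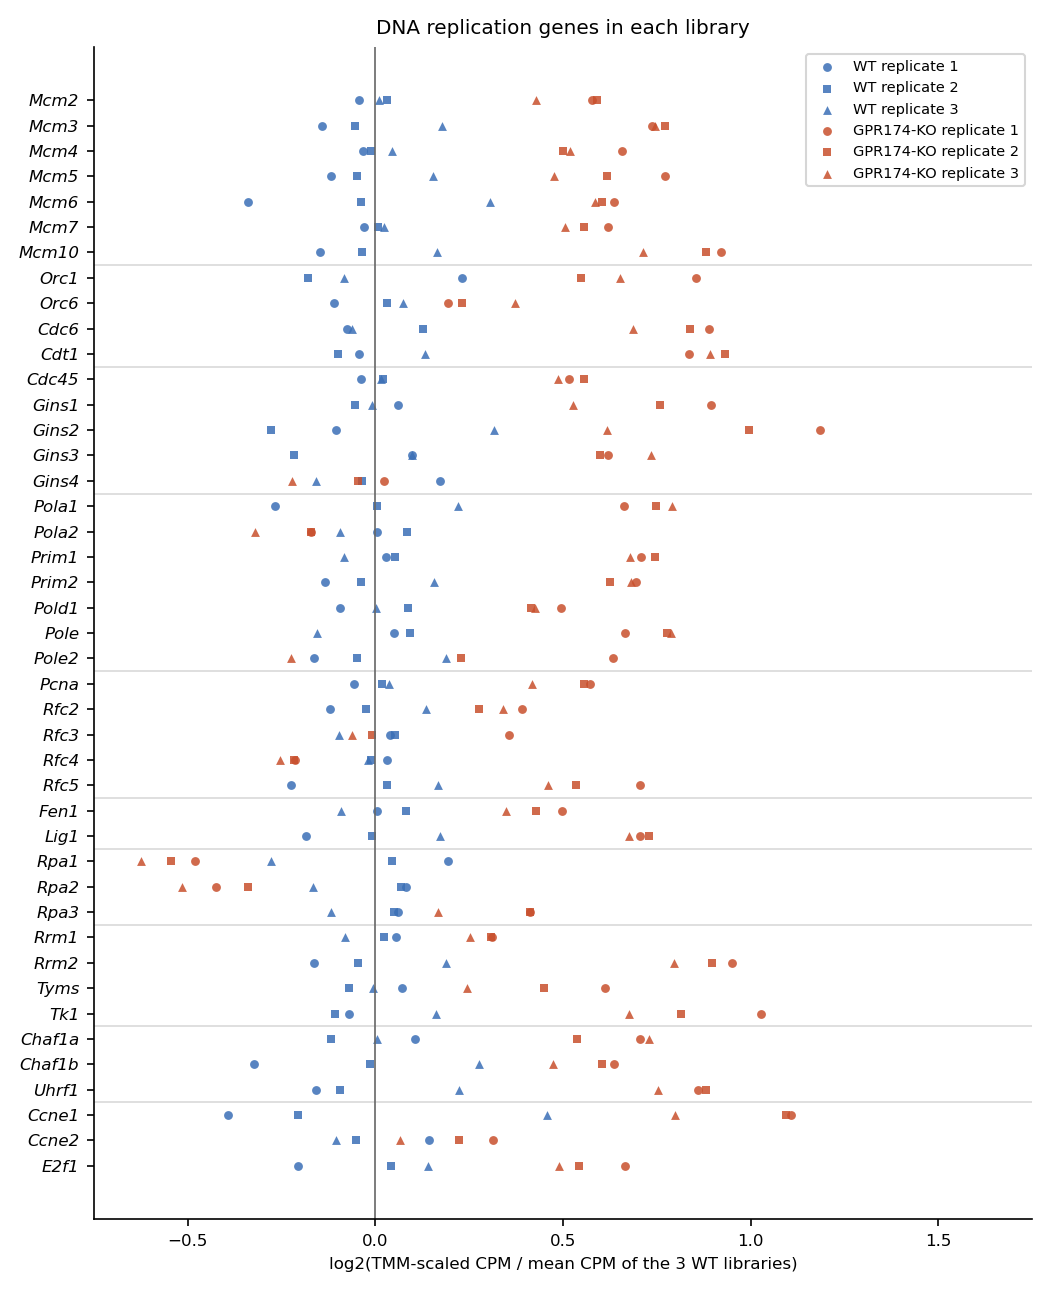
The log2 ratio of each library's TMM-scaled CPM to the mean of the 3 WT libraries (x axis) is plotted for the 43 genes (y axis, grouped by role), with WT in blue, Gpr174-/Y in red and the marker shape giving the replicate. Red points lie to the right of all blue points for 35 genes and to the left for Pola2, Rfc4, Rpa1 and Rpa2.

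Some properties of the libraries bear on these counts. They held 18417077 to 18695013 estimated counts in WT and 19173036 to 19394469 in Gpr174-/Y, so that 3 counts correspond to 0.155 to 0.163 CPM, and Gpr174 itself had 8, 2 and 5 counts in WT and 1, 0 and 0 in Gpr174-/Y muscle. In both genotypes replicate 2 lay between replicates 1 and 3 for most abundant genes, 82.5% of 5639 in WT and 74.1% in Gpr174-/Y, and for 26 and 27 of the 43 members. If no replicate were favoured, each would lie in the middle equally often. The p-values treat the 3 libraries of a group as independent, and whether this order bears on them was not tested. With replicates 1 and 3 of each group alone, edgeR called 0 of all genes and 0 members, its smallest adjusted p being 0.0542, while 31 members were higher and 2 lower at an unadjusted p under 0.05. DESeq2 on those 4 libraries called 10 members higher and 0 lower, where it called 6.58% of all genes higher, and the members' median log2 fold change there was 0.58 in both tools. With replicates 1 and 2 alone edgeR called 36 members and 31.4% of all genes higher. With replicates 2 and 3 alone it called 31 members and 19.9% of all genes higher. The TMM factors were 0.873 to 0.952 in WT and 1.08 to 1.12 in Gpr174-/Y libraries. With total counts in place of TMM, 78.4% of all calls were higher in Gpr174-/Y, against 49.5% with TMM, and 50.7% of all tested genes were called higher. The median over all genes then moved to 0.28 and that of the members to 0.84, which is 0.56 above the shifted centre; 37 members were called higher, Rpa1 alone lower, and 12 higher past both thresholds, beside 7.95% of all genes.

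The MCM genes encode the 6 subunits of the replicative helicase and MCM10, an accessory factor needed to start its unwinding. All 7 were higher in Gpr174-/Y muscle, with log2 fold changes from 0.53 for Mcm2 to 0.84 for Mcm10 and a median of 0.61. Mcm7 stood at 23.5, 24.1 and 24.4 CPM in WT and at 36.9, 35.3 and 34.1 CPM in Gpr174-/Y libraries (log2 fold change 0.56, SE 0.05, edgeR adjusted p = 0.000813). Mcm2 stood at 21.0, 22.1 and 21.8 CPM in WT and at 32.3, 32.6 and 29.1 CPM in Gpr174-/Y libraries (log2 fold change 0.53, SE 0.06, edgeR adjusted p = 0.00125). Both genes kept the groups well apart, with WT libraries that nearly coincided. Mcm6, whose promoter is shown above, was the most dispersed of the 7 in WT at 28.0, 34.5 and 43.8 CPM against 55.1, 53.9 and 53.2 CPM in Gpr174-/Y (log2 fold change 0.61, SE 0.15, edgeR adjusted p = 0.012). Mcm3, Mcm4, Mcm5 and Mcm10 changed by 0.75, 0.56, 0.63 and 0.84 on the log2 scale.

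The licensing factors load the helicase: ORC1 and ORC6 are subunits of the origin recognition complex, and CDC6 and CDT1 bring MCM to it. All 4 were higher, with a median log2 fold change of 0.75. Cdt1 stood at 9.46, 9.11 and 10.7 CPM in WT and at 17.4, 18.6 and 18.1 CPM in Gpr174-/Y libraries (log2 fold change 0.89, SE 0.08, edgeR adjusted p = 0.00073), the lowest unadjusted p among the members. Cdc6 stood at 3.67, 4.23 and 3.71 CPM in WT and at 7.17, 6.92 and 6.23 CPM in Gpr174-/Y libraries (log2 fold change 0.81, SE 0.11, edgeR adjusted p = 0.00161). Orc6 moved least, from 9.15, 10.1 and 10.4 CPM in WT to 11.3, 11.6 and 12.8 CPM (log2 fold change 0.27, SE 0.09, edgeR adjusted p = 0.033). Its lowest Gpr174-/Y library lay only slightly above its highest WT library, whereas Cdt1 and Cdc6 left a wide gap. Orc1, the scarcest member, rested on 28, 22 and 25 counts in WT and 56, 46 and 50 in Gpr174-/Y muscle (log2 fold change 0.69, SE 0.17, edgeR adjusted p = 0.0127).

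CDC45 and the GINS tetramer convert loaded MCM into the moving helicase. Of these 5 genes 4 were higher, with a median of 0.65. Cdc45 stood at 7.09, 7.38 and 7.36 CPM in WT and at 10.4, 10.7 and 10.2 CPM in Gpr174-/Y libraries (log2 fold change 0.52, SE 0.07, edgeR adjusted p = 0.00165). Gins1, Gins2 and Gins3 changed by 0.73, 0.95 and 0.65 on the log2 scale. Gins4, which encodes the remaining GINS subunit, stood at 17.1, 14.8 and 13.6 CPM in WT and at 15.4, 14.7 and 13.0 CPM in Gpr174-/Y libraries, with overlapping groups (log2 fold change -0.08, 95% interval -0.33 to 0.18, edgeR adjusted p = 0.57). So 3 of the 4 genes of this complex were higher while the CPM of the other did not separate the genotypes. Gins4 was also the GINS gene with the highest level per length in WT, at 19.7 TPM ± 1.38 (SD, n = 3; TPM scales for transcript length) against 1.60 to 6.27 TPM for the others.

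The polymerase genes comprise polymerase alpha (Pola1, Pola2), its primase subunits (Prim1, Prim2) and subunits of polymerases delta (Pold1) and epsilon (Pole, Pole2). Of the 7, 5 were higher, 1 was lower and the median was 0.66. Prim1 stood at 4.98, 5.06 and 4.61 CPM in WT and at 7.98, 8.19 and 7.81 CPM in Gpr174-/Y libraries (log2 fold change 0.71, SE 0.08, edgeR adjusted p = 0.0012). Pola2, the second subunit of polymerase alpha, stood at 24.4, 25.8 and 22.8 CPM in WT and at 21.6, 21.6 and 19.5 CPM in Gpr174-/Y libraries (log2 fold change -0.22, SE 0.07, edgeR adjusted p = 0.0392). Pola1 and Pola2, partners in one enzyme, thus differed in direction in this fit, with Pola1 at a log2 fold change of 0.73. The direction of Pola2 turned to 0.06 with total counts, and its call was lost there. Only 6 of the 20 alternative fits kept both the direction and the call of Pola2. Pole, the catalytic subunit of polymerase epsilon, changed by 0.75 and Pold1 by 0.45 on the log2 scale, both higher. Pole2 spread widely in Gpr174-/Y muscle, at 5.73, 4.33 and 3.16 CPM, around WT values of 3.30, 3.57 and 4.21 CPM (log2 fold change 0.25, 95% interval -0.30 to 0.80, edgeR adjusted p = 0.387). Of its Gpr174-/Y libraries 1 lay below all WT libraries and the others above.

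PCNA is the ring that tethers polymerases to DNA, and replication factor C (RFC) opens the ring to load it. Pcna stood at 42.4, 44.6 and 45.2 CPM in WT and at 65.5, 64.8 and 58.9 CPM in Gpr174-/Y libraries (log2 fold change 0.52, SE 0.06, edgeR adjusted p = 0.00119). The loader genes were less uniform, since Rfc2 and Rfc5 were higher (0.34 and 0.57) and Rfc3 and Rfc4 did not pass. Rfc3 stood at 7.78, 7.86 and 7.08 CPM in WT and at 9.70, 7.53 and 7.26 CPM in Gpr174-/Y libraries, so that a single Gpr174-/Y library exceeded the WT range (log2 fold change 0.11, 95% interval -0.20 to 0.42, edgeR adjusted p = 0.508). Rfc4 stood at 4.36, 4.23 and 4.21 CPM in WT and at 3.68, 3.67 and 3.58 CPM in Gpr174-/Y libraries, without overlap (log2 fold change -0.23, 95% interval -0.45 to -0.01, edgeR adjusted p = 0.145). The Rfc4 value was 0.05 with total counts. The median over the clamp and its loader was 0.34.

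FEN1 removes primer flaps and LIG1 seals the fragments of the lagging strand. Both genes were higher. Lig1 stood at 13.1, 14.8 and 16.8 CPM in WT and at 24.3, 24.7 and 23.8 CPM in Gpr174-/Y libraries (log2 fold change 0.70, SE 0.09, edgeR adjusted p = 0.00152). Fen1 stood at 10.8, 11.4 and 10.1 CPM in WT and at 15.2, 14.5 and 13.7 CPM in Gpr174-/Y libraries (log2 fold change 0.43, SE 0.08, edgeR adjusted p = 0.00427). The Gpr174-/Y libraries of Lig1 fell within a narrow band above a broader WT range.

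Replication protein A, which coats unwound DNA in replication and also in repair and recombination, was the role group with a median below 0, at -0.42. Rpa1, its large subunit, stood at 97.1, 87.5 and 70.0 CPM in WT and at 60.8, 58.2 and 55.1 CPM in Gpr174-/Y libraries (log2 fold change -0.55, SE 0.12, edgeR adjusted p = 0.00794). Rpa2 stood at 20.9, 20.7 and 17.6 CPM in WT and at 14.7, 15.6 and 13.8 CPM in Gpr174-/Y libraries (log2 fold change -0.42, SE 0.09, edgeR adjusted p = 0.00727). Rpa3 went the other way, from 5.10, 5.06 and 4.50 CPM in WT to 6.50, 6.50 and 5.49 CPM (log2 fold change 0.34, SE 0.11, edgeR adjusted p = 0.0384). The subunits of this trimer therefore did not move together, and in none of the 3 genes did the groups overlap. Among all tested genes, every Gpr174-/Y library stood above every WT library for 33.1% and below for 32.4%. Rpa1 stayed lower with total counts as well (the 20 alternative fits gave -0.66 to -0.25), while Rpa2 lost its call there and kept its sign (-0.49 to -0.13 over the same fits).

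Ribonucleotide reductase (Rrm1, Rrm2), thymidylate synthase (Tyms) and thymidine kinase (Tk1) supply deoxynucleotides. All 4 genes were higher, with a median of 0.64. Rrm2, the subunit whose level is known to follow S phase, stood at 16.3, 17.7 and 20.8 CPM in WT and at 35.3, 34.0 and 31.7 CPM in Gpr174-/Y libraries (log2 fold change 0.88, SE 0.10, edgeR adjusted p = 0.00107). Rrm1, the large subunit, stood at 54.8, 53.6 and 49.9 CPM in WT and at 65.4, 65.3 and 62.9 CPM in Gpr174-/Y libraries (log2 fold change 0.29, SE 0.05, edgeR adjusted p = 0.00438). The step was clear in both, and it was larger for Rrm2. Tk1 and Tyms changed by 0.84 and 0.45 on the log2 scale.

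CAF-1 (Chaf1a, Chaf1b) places histones on new DNA, and UHRF1 recruits the maintenance methyltransferase to hemimethylated sites. All 3 genes were higher. Uhrf1 stood at 13.3, 13.9 and 17.3 CPM in WT and at 26.9, 27.3 and 25.0 CPM in Gpr174-/Y libraries (log2 fold change 0.83, SE 0.11, edgeR adjusted p = 0.00145). Chaf1b stood at 4.23, 5.24 and 6.41 CPM in WT and at 8.22, 8.05 and 7.35 CPM in Gpr174-/Y libraries (log2 fold change 0.57, SE 0.15, edgeR adjusted p = 0.017). WT replicate 3 was nearest to the Gpr174-/Y libraries in both. Chaf1a changed by 0.66 on the log2 scale.

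Cyclin E activates CDK2 at S phase entry, and E2F1 activates transcription of many genes named here. E2f1 stood at 9.52, 11.3 and 12.1 CPM in WT and at 17.4, 16.0 and 15.4 CPM in Gpr174-/Y libraries (log2 fold change 0.57, SE 0.10, edgeR adjusted p = 0.00426). Ccne1 stood at 3.24, 3.69 and 5.84 CPM in WT and at 9.18, 9.09 and 7.40 CPM in Gpr174-/Y libraries (log2 fold change 1.00, SE 0.22, edgeR adjusted p = 0.00827). Ccne2, the other cyclin E gene, stood at 7.22, 6.31 and 6.07 CPM in WT and at 8.12, 7.63 and 6.84 CPM in Gpr174-/Y libraries (log2 fold change 0.21, 95% interval -0.05 to 0.46, edgeR adjusted p = 0.146). The groups overlapped for Ccne2 and not for Ccne1.

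**Figure D2:**
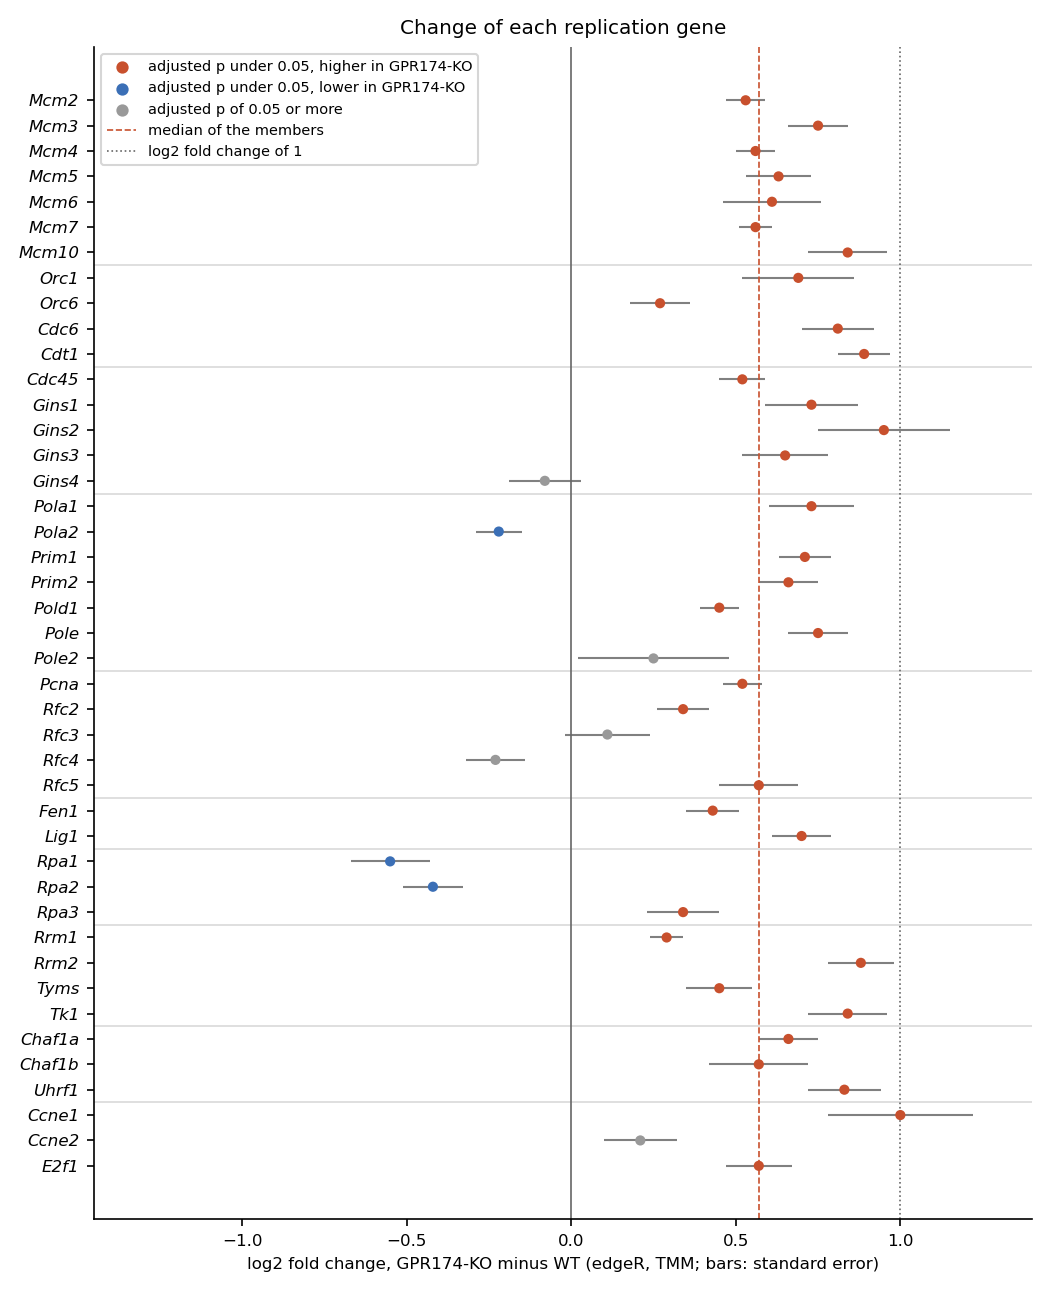
The edgeR log2 fold change of Gpr174-/Y minus WT (x axis, TMM scaling) is shown for each of the 43 genes (y axis, grouped by role) with its standard error as a bar. Red points mark 35 genes called higher, blue points 3 called lower and grey points 5 not called; the dashed line is the members' median of 0.57 and the dotted line a log2 fold change of 1.

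Levels of different genes can be compared only per transcript length, in TPM, which the authors scaled to each library's total without TMM factors. The median member stood at 8.32 TPM in WT and 16.2 TPM in Gpr174-/Y muscle. In WT 5 members were above 20 TPM and 12 below 5 TPM, and in Gpr174-/Y muscle 12 were above 20 TPM and 6 below 5 TPM. These differences between genotypes include the difference in scaling, and the same figures over all genes were not computed. For Pcna the TPM ratio of Gpr174-/Y to WT was 1.87, beside a TMM-scaled fold change of 1.43. For Rpa1 the ratio was 0.9 beside 0.684. Pcna had the highest level in both genotypes, at 62.3 TPM ± 5.06 in WT and 117 TPM ± 3.34 in Gpr174-/Y (SD, n = 3). Orc1 had the lowest, at 0.493 TPM ± 0.0153 in WT and 1.24 TPM ± 0.170 in Gpr174-/Y (SD, n = 3). In WT Rpa1 came second at 48.2 TPM ± 5.53, followed by Rfc2, Rrm1 and Mcm6 at 23.5 ± 3.32, 22.8 ± 0.216 and 20.4 TPM ± 5.52 (SD, n = 3), an order in which the last 3 genes lie within their spread of each other. TPM values do not carry the TMM shift, so Pola2 reads 17.4 TPM in WT and 19.5 TPM in Gpr174-/Y muscle although its TMM-scaled CPM was lower.

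**Figure D3:**
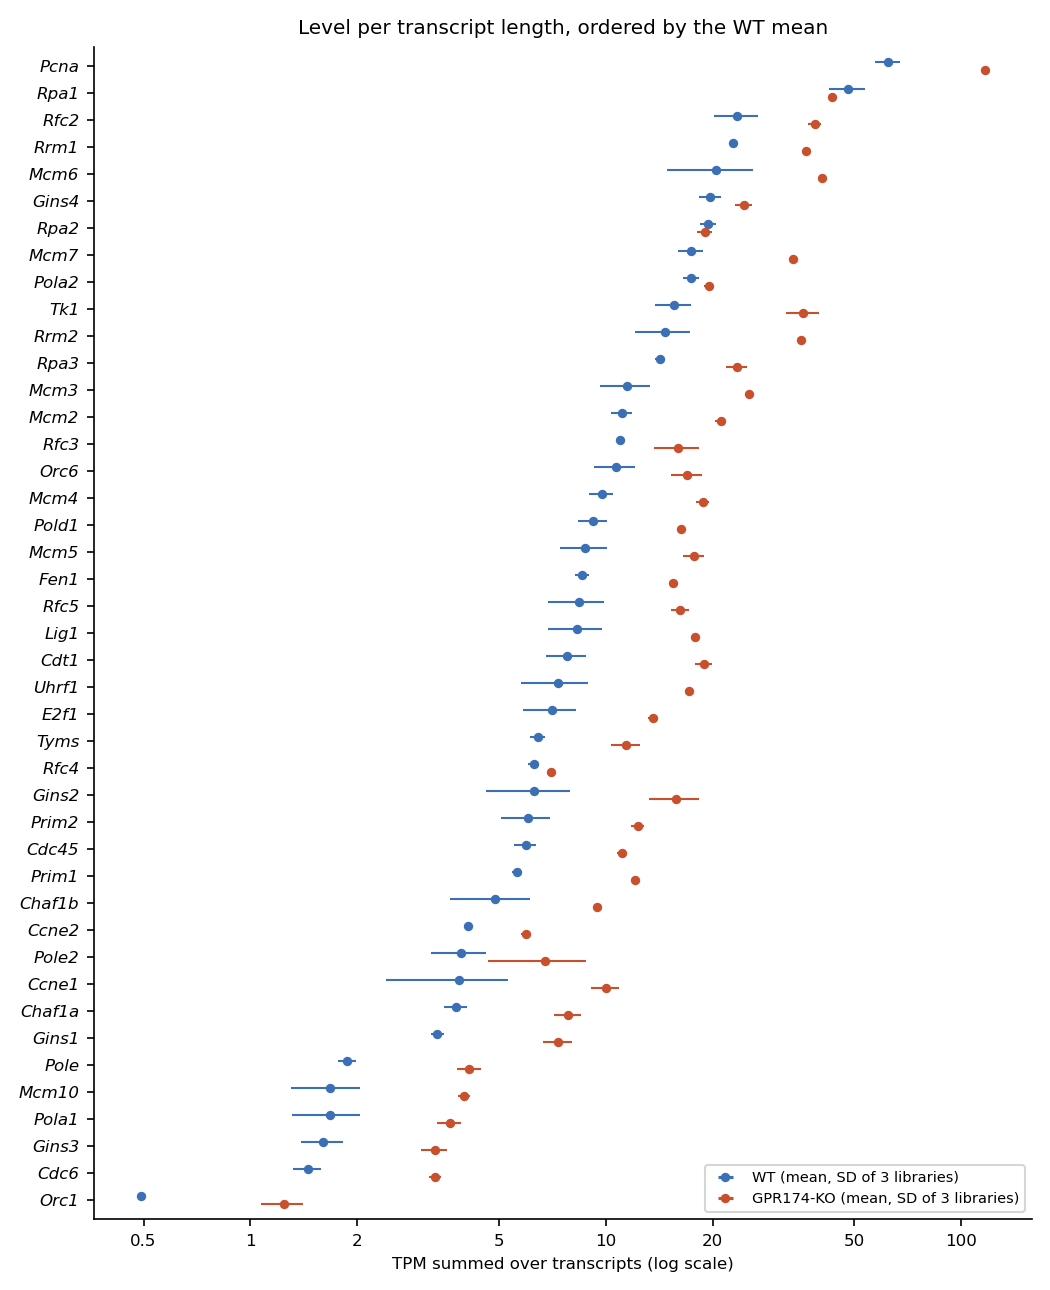
The mean TPM summed over transcripts (x axis, log scale) with its SD over 3 libraries is shown for WT (blue) and Gpr174-/Y (red) for the 43 genes (y axis), ordered by the WT mean. Pcna is at the top (62.3 and 117 TPM) and Orc1 at the bottom (0.493 and 1.24 TPM), and the red point is to the left of the blue one for Rpa1 and Rpa2.

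Ratios of functionally paired genes within a library do not depend on the scaling between libraries. For 8 pairs the TPM ratio was compared by a two-sided exact permutation test, which cannot go below p = 0.1 with 3 libraries a group. The Rrm2 to Rrm1 ratio was 0.551, 0.611 and 0.772 in WT and 1.00, 0.963 and 0.935 in Gpr174-/Y libraries (exact permutation p = 0.1, adjusted over 8 pairs 0.133). The Ccne2 to Ccne1 ratio was 1.51, 1.22 and 0.743 in WT and 0.595, 0.552 and 0.648 in Gpr174-/Y libraries (exact permutation p = 0.1, adjusted 0.133). Both ratios separated the genotypes completely, the first upwards and the second downwards. The pairs were chosen with earlier results of these data known, and how often other gene pairs separate so was not computed. The ratio of Cdt1 to Gmnn, the gene of geminin, which inhibits CDT1, averaged 1.15 ± 0.138 in WT and 1.57 ± 0.166 in Gpr174-/Y (SD, n = 3, exact permutation p = 0.1, adjusted 0.133). Mcm10 to Mcm2, Orc1 to Orc6 and Pcna to Mki67 also did not overlap between genotypes, Orc1 to Orc6 doing so when counts replaced TPM (exact permutation p = 0.3). Pole2 to Pole and Chaf1b to Chaf1a overlapped (exact permutation p = 0.4 and 0.8). No pair passed 0.05 after adjustment, which this design does not allow.

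Other genes of the pathway were taken from lists, to be read beside the 27.0% of all tested genes called higher and 27.6% called lower. Of 40 further replication factors 24 were higher and 4 lower, with a median log2 fold change of 0.24; without WT replicate 2 the count higher was 15, without Gpr174-/Y replicate 2 it was 14, and leaving out any library other than WT replicate 3 gave 2 lower. Wdhd1, which links helicase and polymerase alpha, and Clspn, a fork and checkpoint mediator, changed by 1.05 and 0.96 (edgeR adjusted p = 0.00132 and 0.00134), and Ticrr, which acts in origin firing, equalled Clspn at the digits given (0.96, edgeR adjusted p = 0.00224). Pold2, a polymerase delta subunit, and Asf1a, a histone chaperone, changed by -0.34 and -0.33 (edgeR adjusted p = 0.00315 and 0.00484). Gmnn stood at 3.42, 3.15 and 4.66 CPM in WT and at 5.40, 5.23 and 4.51 CPM in Gpr174-/Y libraries, with overlap (log2 fold change 0.42, edgeR adjusted p = 0.0673).

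Of 27 genes of E2F, RB, cyclin D and A and CDK inhibitors, 13 were higher and 4 lower, with a median of 0.18, and 2 were lower without WT replicate 2 or Gpr174-/Y replicate 2. E2f8, an E2F repressor that is itself an E2F target, changed by 1.31, and Cdkn1a, the CDK inhibitor p21, by 0.95 (edgeR adjusted p = 0.0025 and 0.00475). Cdkn1a stood at 131, 173 and 224 CPM in WT and at 340, 341 and 344 CPM in Gpr174-/Y libraries. WT replicate 3 lay nearest to the Gpr174-/Y libraries, which nearly coincided. E2f6, a repressor of the family, and Tfdp2, a dimer partner of E2Fs, changed by -0.75 and -0.45 (edgeR adjusted p = 0.00175 and 0.0012). Rb1 and Ccnd1 did not pass, with log2 fold changes of 0.24 and 0.05 (edgeR adjusted p = 0.0581 and 0.656).

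All 20 mitosis genes were higher, with a median of 0.81 and a range from 0.54 for Nusap1 to 1.27 for Ccnb1. Ccnb1, the cyclin of mitotic entry, and Ttk, a spindle checkpoint kinase, changed by 1.27 and 1.13 (edgeR adjusted p = 0.000778 and 0.00073), and both passed a log2 fold change of 1. Mki67, a marker of cycling cells, stood at 50.3, 52.6 and 53.0 CPM in WT and at 87.0, 91.5 and 94.8 CPM in Gpr174-/Y libraries (log2 fold change 0.81, SE 0.05, edgeR adjusted p = 0.000433). The difference in median between the lists was not tested.

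**Figure D4:**
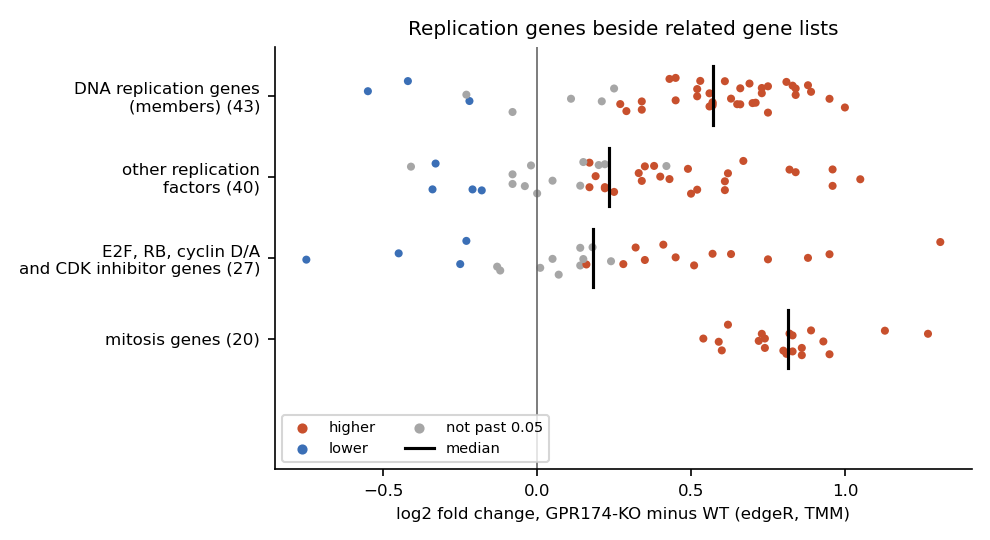
Each point is a gene at its edgeR log2 fold change of Gpr174-/Y minus WT (x axis), in rows for the 43 replication genes and 3 lists of related genes, with the vertical scatter within a row carrying no value. Black bars are the medians (0.57, 0.24, 0.18 and 0.81), and red, blue and grey stand for called higher, called lower and not called.

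The RNA of many cell type marker genes differed between genotypes as well, where 27.0% of all tested genes were called higher and 27.6% lower. All 15 markers of mature fibres were lower in Gpr174-/Y muscle, their summed level being 139937 to 201934 CPM in WT and 61995 to 69606 CPM in Gpr174-/Y. Of 10 markers of regenerating fibres 8 were higher (2980 to 5753 against 6069 to 7025 CPM), and of 7 of satellite cells 4 were higher and 2 lower (172 to 193 against 255 to 260 CPM). Of 9 macrophage markers 7 were higher (1099 to 1587 against 2587 to 2615 CPM). All 8 endothelial markers were lower (998 to 1180 against 604 to 693 CPM). Of 8 fibroblast markers 3 were higher and 4 lower (15377 to 21858 against 27551 to 31037 CPM), and of 7 of smooth muscle and pericytes 4 were higher and 2 lower (1014 to 1030 against 1185 to 1343 CPM). None of the 6 testable T cell markers passed (15.2 to 26.2 against 25.3 to 27.5 CPM), nor did any of 5 erythroid genes (185 to 281 against 152 to 440 CPM). Of 7 neutrophil markers 2 could be tested and both were higher (15.1 to 23.8 against 28.8 to 31.7 CPM). No marker of any list was at 0 in every library. The part of these differences in the values of the replication genes was not tested.

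**Figure D5:**
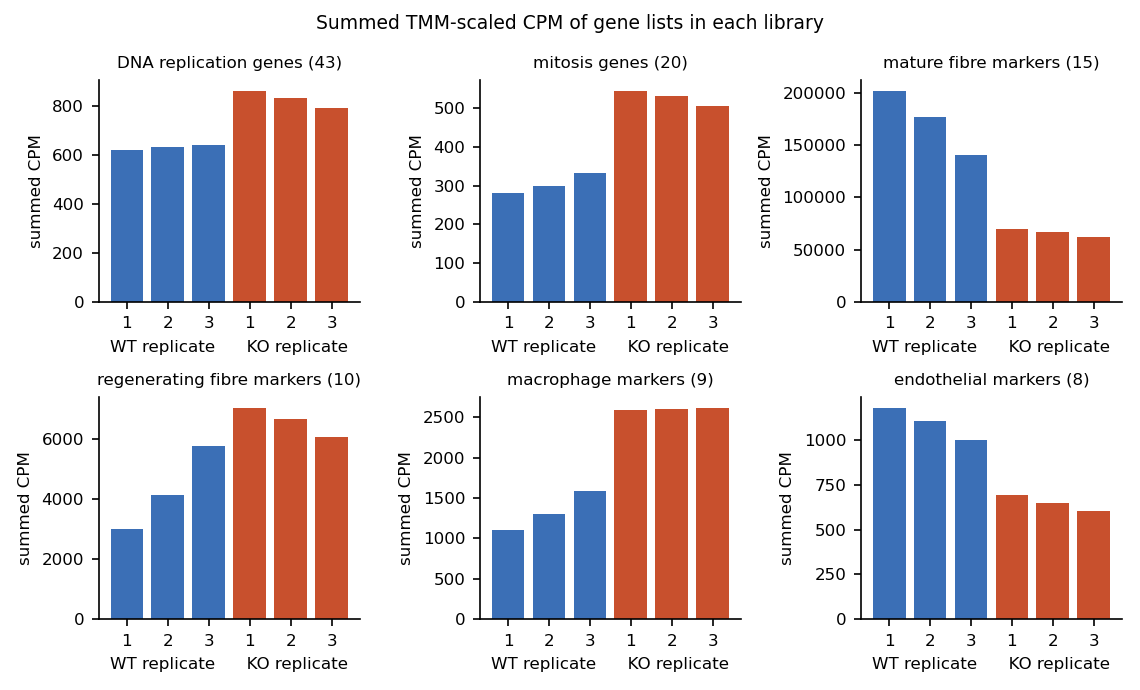
Bars give the summed TMM-scaled CPM (y axis, from 0) of 6 gene lists in each library, with WT replicates in blue and Gpr174-/Y replicates in red. The replication and mitosis genes, regenerating fibre markers and macrophage markers are higher in every red bar than in every blue bar, and mature fibre and endothelial markers are lower.

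Across the members with a promoter window, the E2F motif was found in 14 genes: Mcm3, Mcm5, Mcm6, Mcm7, Orc1, Cdc6, Cdt1, Gins3, Pola1, Pold1, Pole2, Rfc3, Lig1 and Uhrf1. That is 35% of the 40 member windows, where 2.26% of all 32851 windows and 3.64% of the windows of tested genes held it. Of the 14 genes with a match 12 were higher, with a median log2 fold change of 0.67, and of the 21 without 17 were higher, with a median of 0.52. For the 8 members not in the table the count was 6 and the median 0.61. Pole2 and Rfc3 carry the motif and were not called. The CCAAT box was found in 21 members, or 57.5% of member windows beside 37.4% of all windows and 37.3% of those of tested genes. All 3 Rpa genes were among them, and of these Rpa1 and Rpa2 were lower, so genes that were lower also carry it. The cell cycle homology region, searched as TTTGAA on both strands, was found in 4 members, Mcm2, Cdc45, Gins3 and Fen1, or 10% of member windows beside 17.9% of all windows and 12.4% of those of tested genes. These matches describe letters and not bound sites.

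The 43 genes had 101 transcripts in the deposited table; 18 genes had 1 transcript and none had more than 8. For Cdc6 the estimated counts were assigned almost entirely to a different transcript in each of WT replicates 1 and 2 (57.56 and 69.61 counts), WT replicate 3 (66.0 counts) and the Gpr174-/Y libraries (150, 147 and 134 counts). Such an all-or-none split also affects the length by which TPM was scaled, and the TPM values of Cdc6, which enter the TPM counts and medians given here, carry this limit. The share of counts in the leading transcript also varied widely between libraries for other members. It ran from 0.0161% to 100% for Pole and from 0% to 81.3% for Ccne2. The range was 0.895% to 74.2% for Orc1, 10.4% to 76.7% for Pola2 and 0% to 51.4% for Uhrf1. The TPM values and TPM ratios of these genes can carry the same limit. Exons of 14 members overlap a gene on the opposite strand in GENCODE M21, by at least 300 bases in Ccne2, Chaf1a, Fen1, Gins2, Rfc2 and Rfc5. Strand use in counting was not given in the sources used here, and without it reads of both genes cannot be told apart. Rfc2 shares 952 bases with Lat2, which was higher (log2 fold change 1.07, edgeR adjusted p = 0.00482), whereas the partners of Chaf1a and Gins2, Ubxn6 and Gse1, changed by -0.26 and 0.16. Ints8 and Wsb2, the partners of Ccne2 and Rfc5, changed by 0.21 and -0.15, and Gm10143, which overlaps Fen1, had no tested value. Among the shorter overlaps, Rfc4 shares 186 bases with Eif4a2, the partner with the most counts (30352 summed over libraries). Eif4a2 was lower (log2 fold change -0.42, edgeR adjusted p = 0.00622), and its part in the Rfc4 values was not tested.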

How the data were processed

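Muscle RNA of 3 WT and 3 Gpr174-/Y mice was sequenced on the BGISEQ-500 platform, per the study's methods. The authors deposited 1 table of 58843 transcripts with expected counts, estimates that need not be whole and were not normalized, and with FPKM and TPM values scaled by the authors for length and library total. The submitters' processing notes name HISAT2 2.0.4, Bowtie2 2.2.5, RSEM 1.2.12 and GRCm39, without their roles. Strand use was not given in the sources used here. The table's columns of group means were left out.

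Counts were summed by Entrez gene over transcripts and rounded, giving 18089 genes, 99.7% with a symbol. Groups and replicate numbers came from the sample labels. Genes were tested with edgeR 4.0.16 (edgeR's filter on low counts, TMM, robust quasi-likelihood F-test, Benjamini-Hochberg adjustment) in R 4.3.3, and called at an adjusted p under 0.05 at any fold change. The common dispersion was 0.00967 (biological coefficient of variation 0.0983). SE is the log2 fold change divided by the root of F, and intervals are 95% from the fit. The sources do not say more than that the 3 samples of a group are separate mice, so p-values measure the spread between these samples. On simulated counts the fit recovered 94% of genes changed by 1 and 99% of genes changed by 2 on the log2 scale, with 12 false calls of 14369. The simulation gave every gene the same dispersion and changed 100 genes by each amount, equally up and down. In the real data 54.6% of tested genes were called, so the simulation does not give their rate of false calls. The members, related lists, markers and tests were chosen with earlier results of these data known. Per-library values are given, by rule, for the member with the lowest p and the one with the smallest change in each role, and for Pcna, Mcm2, Cdc6, Rrm2, E2f1, Ccne1 and Ccne2; of each related list the 2 called genes with the largest change each way, with Mki67, Gmnn, Ccnd1, Cdkn1a and Rb1. Mcm6, Orc1, Pole2, Rfc4, Rpa1 and Ticrr were added after their values were seen. Alternatives were DESeq2 1.42.0 (size factors and Wald test), upper-quartile and total-count scaling, limma 3.58.1 (voom, and log2 of FPKM plus a pseudocount of 1 or 0.1 for genes with FPKM of at least 1 in 3 libraries), omitting the filter, requiring 10 counts in each library, a replicate block, and leaving out libraries. Same-numbered samples did not deviate together (correlations 0.0154, -0.0386 and -0.000532 over 5639 abundant genes), and nothing in the labels pairs them.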

Additional observations from a re-analysis of the deposited data

How the results depend on the processing

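The members' median stayed positive in all 20 alternative fits (0.49 to 0.84), with 36 to 41 of the tested members at a positive log2 fold change. Single-gene values over those alternatives numbered 1138, for the members and the related genes named by rule. Of these 984 kept their direction and side of the threshold, 117 lost their call, 22 gained one and 15 changed sign.

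With total counts, 12 members passed both thresholds, 1 was lower, the median was 0.84, and the other replication factors had 0 lower and the E2F and RB list 21 higher and 2 lower. On log2(FPKM + 1) and log2(FPKM + 0.1), with 42 members tested, 4 and 8 passed both thresholds, 1 was lower in each, the medians were 0.66 and 0.83, and these lists again gave 0, 21 and 2; the median over all genes was 0.24 and 0.28 there, and 54.4% and 54.3% of all genes were called higher. Members past both thresholds numbered 1 with upper-quartile scaling, voom, the omitted filter, the minimum of 10 counts and the replicate block; other replication factors called lower were 2 with upper-quartile scaling, the omitted filter and the block. The replicate block gave 35 members higher and 3 lower and 6812 calls over all genes, and it called 16 of the other replication factors higher in place of 24; the replicate numbers do not pair the samples.

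Replicates 1 and 3 alone gave 0 calls in edgeR for members, all genes and every list, with 5026 of all genes at an unadjusted p under 0.05; chosen after seeing the data, DESeq2 there called 10 members higher and 0 lower, 2331 genes, 4 and 0 of the other replication factors and 4 and 1 of the E2F and RB list. The cause was not tested. Also chosen after seeing the data, replicates 1 and 2 alone gave 36 members higher and 3 lower, and 9153 calls over all genes. Of the members 4 passed both thresholds there, and the median was 0.65. Replicates 2 and 3 alone gave 31 members higher and 2 lower, 5965 calls over all genes and a median of 0.49. With those libraries the other replication factors were 13 higher and 2 lower, and 2 of the E2F and RB list were lower.

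Leaving out each replicate in turn gave 31 to 34 members higher, 2 to 3 lower, 0 to 2 past both thresholds, a median of 0.52 to 0.66 and 5457 to 9165 calls over all genes. Other replication factors were 14 to 25 higher and 2 to 4 lower, the E2F and RB list 10 to 17 higher and 2 to 4 lower. Members past both thresholds were 2 without WT replicate 3 and without Gpr174-/Y replicate 3. The range was -0.14 to 0.03 for Gins4, -0.03 to 0.19 for Rfc3 and -0.03 to 0.14 for Ccnd1.

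Signs changed for Gins4 (0.20 with total counts, 0.18 and 0.20 on the FPKM scales, 0.03 without WT replicate 1), Pola2 (0.06, 0.04 and 0.05 on the same scales), Rfc4 (0.05, 0.03 and 0.04), Pole2 (-0.06 with replicates 2 and 3), Rfc3 (-0.01 with replicates 2 and 3, -0.03 without Gpr174-/Y replicate 1) and Ccnd1 (-0.03 in both of those). With the window cut to the 250 bases before the start, 9 members held an E2F match. Protein features were planned and not run. Genes under 3 counts in a library are below what this depth resolves.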
